A study of Rattus norvegicus with 8 samples.

Results

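The extracellular matrix of the brain and the integrins that bind it were followed through 60 listed genes, of which 53 had a feature under their symbol in the platform annotation. They are 53 of the 14871 named genes and cover 142 of 45220 array features. Col6a3, Col12a1, Col4a2, Lama2, Lamb1, Itga3 and Itgav are unnamed here and were not analysed. The members fall into 6 fibrillar collagens, 3 measured genes of other interstitial collagens and collagen crosslinking, 10 of the basement membrane, 9 matricellular and adhesive glycoproteins, 5 small leucine-rich proteoglycans, 5 lecticans and their link protein, 7 cell surface proteoglycans and 8 integrin subunits.

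The tissue was hippocampus from the electrode's side in male Wistar rats aged 13 weeks, all of which carried an electrode aimed at the lateral hypothalamus and had 7 days of recovery from surgery. ICSS rats learned intracranial self-stimulation, working for short trains of current, in sessions of 20 min, and 24 h after the last of these took 2500 trains. Sham rats were handled and explored the box, with the same 20 min and 24 h given for them. They then spent 40 min in it without current. Each of the 4 pools per group held tissue of 3 rats, so the spread between single animals was not measured, and the labels state no delay from session to dissection. A value is the log2 ratio of a pool, labelled with Cy5, to a Cy3-labelled common reference of brain tissue, on 1 array per pool. The labels of the reference channel name hippocampus, thalamus and cortex from the other side of both kinds of rat, whereas the design text names hippocampus alone. Of 10 hippocampal markers 8 lay above 0 in the Sham pools (median 0.70) and all 7 thalamic markers measured lay below 0 (median -0.58). The arrays correlated at r = 0.586 to 0.873 over all features, and Sham replicate 4 gave the lowest of these values.

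Brain matrix is unlike that of connective tissue. Collagen fibrils, with the small proteoglycans that bind them, lie in the meninges, around larger vessels and in the choroid plexus stroma, whereas sheets of laminin, collagen IV, nidogen and perlecan form the basement membrane of capillaries and of the outer brain surface. Between neurons the matrix consists of hyaluronan, lecticans such as aggrecan, and tenascins, which condense into perineuronal nets around some inhibitory neurons and, in the hippocampus, CA2 cells. Integrins are pairs of an alpha and a beta subunit that tie these molecules to the cytoskeleton, and syndecans and glypicans carry heparan sulfate on the cell surface. In pooled tissue, fewer cells of a type and less RNA per cell cannot be told apart.

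Self-stimulation was set against Sham to see which of these genes differed. Fn1, the gene of fibronectin, was the member that passed limma's threshold (Benjamini-Hochberg adjusted p below 0.05 over 34738 genes and unnamed probes), and it was higher in ICSS pools. That is 1 of 53 members, against 0.0461% of all units called in either direction (0.0605% of named genes) and 0.0259% called higher. The 2 groups of pools did not overlap in 7 members, or 13.2%, against 7.8% of all units and 8.98% of named genes. Of these, Fn1, Acan and Itgb5 were higher in ICSS (4.13% of all units were), and Gpc3, Agrn, Col5a2 and Tnr were lower (3.66%). At an unadjusted p below 0.05 there were 10 members (18.9%), against 12.6% of all units and 13.1% of named genes. Of the 53 members 29 had a higher and 24 a lower mean in ICSS pools (52.8% of all units and 52.6% of named genes were higher), with a median difference of 0.019 beside 0.0069 over all named genes, and 26 differed by less than 0.1 on the log2 scale.

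Regional markers were set against the groups in the same way. The mean of the 10 hippocampal markers was 0.68, 0.70, 0.59 and 0.65 in ICSS replicates 1 to 4 and 0.77, 0.87, 0.77 and 0.71 in Sham replicates 1 to 4, lower in every ICSS pool. Of these markers 4 had a higher and 6 a lower mean in ICSS pools, none passed (smallest limma adjusted p = 0.123), and 4 had an unadjusted p below 0.05, of which C1ql2, Zbtb20 and Fibcd1 were lower and Tdo2 was higher. C1ql2, a marker of dentate granule cells, was at 1.80, 1.81, 1.76 and 1.95 in ICSS and 2.47, 2.24, 2.20 and 2.75 in Sham replicates 1 to 4 (difference -0.58, SE 0.11), the marker of this list whose groups did not overlap. Its difference was the largest of the list. The separation of the marker mean rested on C1ql2. Over the other markers alone the mean of Sham replicate 4 falls within the ICSS range, so the groups overlap. All 7 thalamic markers had a higher mean in ICSS pools (median difference 0.076), none with an unadjusted p below 0.05, and their mean overlapped between groups, from -1.21 to -0.77 in ICSS and from -1.27 to -1.06 in Sham pools. The part of regional make-up in the members' differences was not tested.

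**Figure D1:**
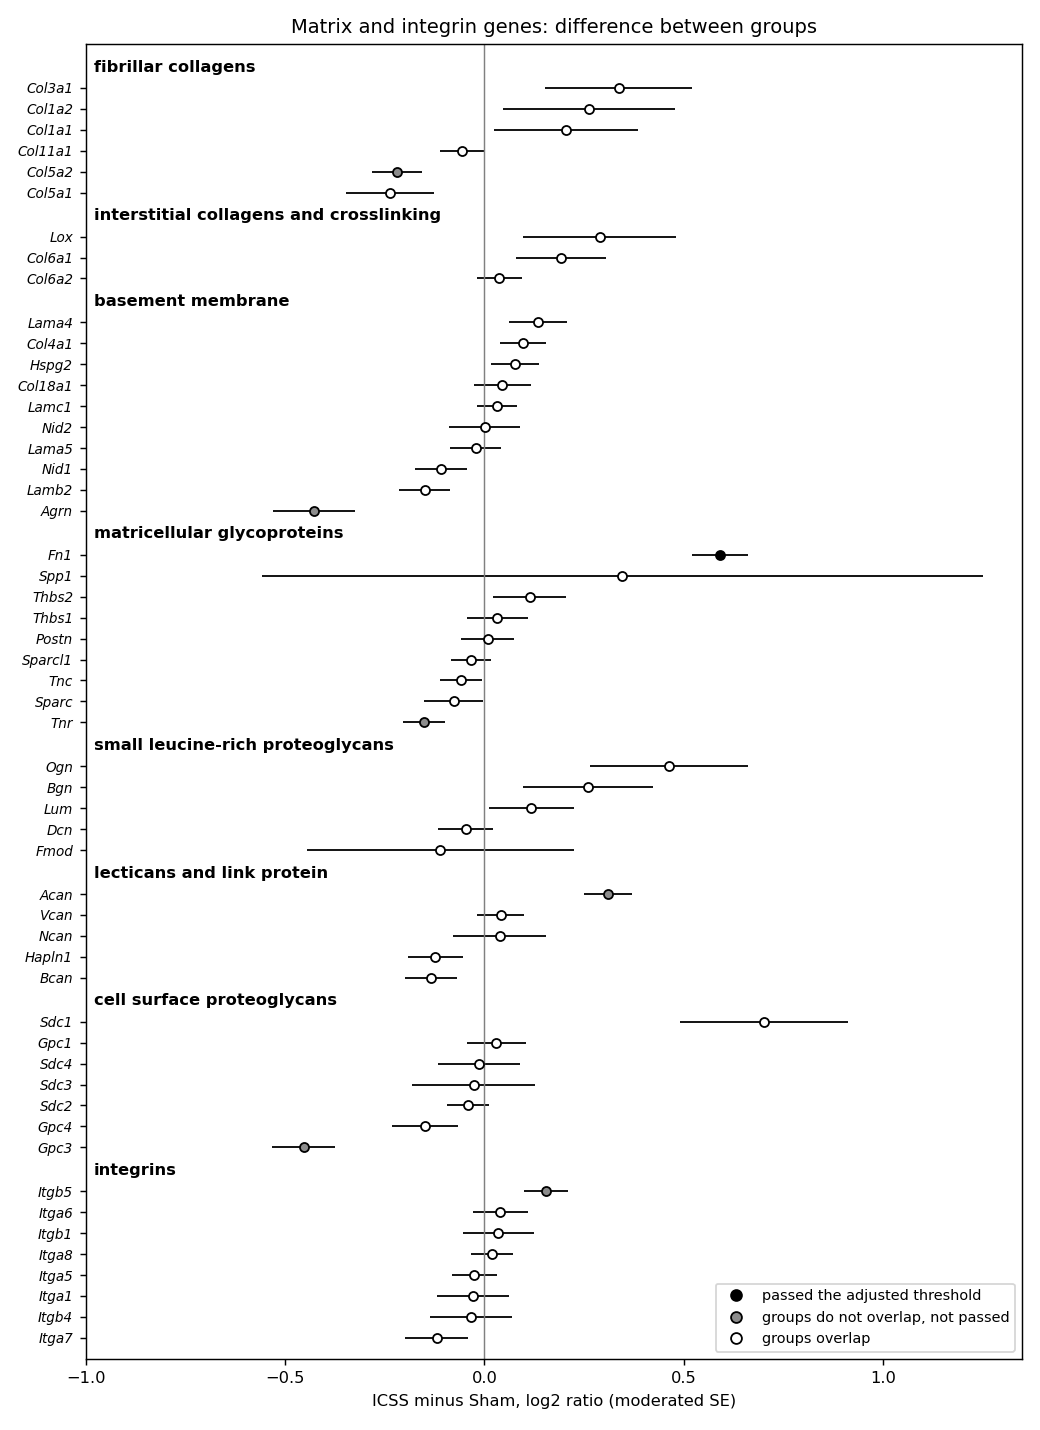
ICSS minus Sham difference in log2 ratio for the 53 measured members, by class, with bars of the moderated standard error from limma (4 pools per group). The filled black point is Fn1, grey points are the other 6 members whose groups do not overlap, and open points have overlapping groups, with Spp1 carrying the widest bar.

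Fibronectin is a large adhesive glycoprotein that integrins bind and that links cells to collagen. The log2 ratio of Fn1 was 0.19, 0.093, 0.095 and 0.17 in ICSS replicates 1 to 4 and -0.43, -0.64, -0.38 and -0.37 in Sham replicates 1 to 4. Every ICSS pool was above the reference and every Sham pool below it, so the groups did not overlap. The mean rose from -0.46 ± 0.13 to 0.14 ± 0.050 (SD, n = 4 each), a 1.51-fold increase (difference 0.59, SE 0.071, limma adjusted p = 0.0283). Fn1 had 11 features, and in each of them all 4 ICSS pools lay above all 4 Sham pools, by 0.49 to 0.74 in the mean. With each feature as its own unit 7 of the 11 passed, of 53 features called among 45220. The annotation does not say which exons or splice forms these features read. With single arrays left out the difference ran from 0.53 without Sham replicate 2 to 0.62 without Sham replicate 4. The adjusted p did not stay below 0.05 without ICSS replicate 2 (0.122), ICSS replicate 3 (0.0871), ICSS replicate 4 (0.0961), Sham replicate 1 (0.0753) or Sham replicate 3 (0.0902).

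**Figure D2:**
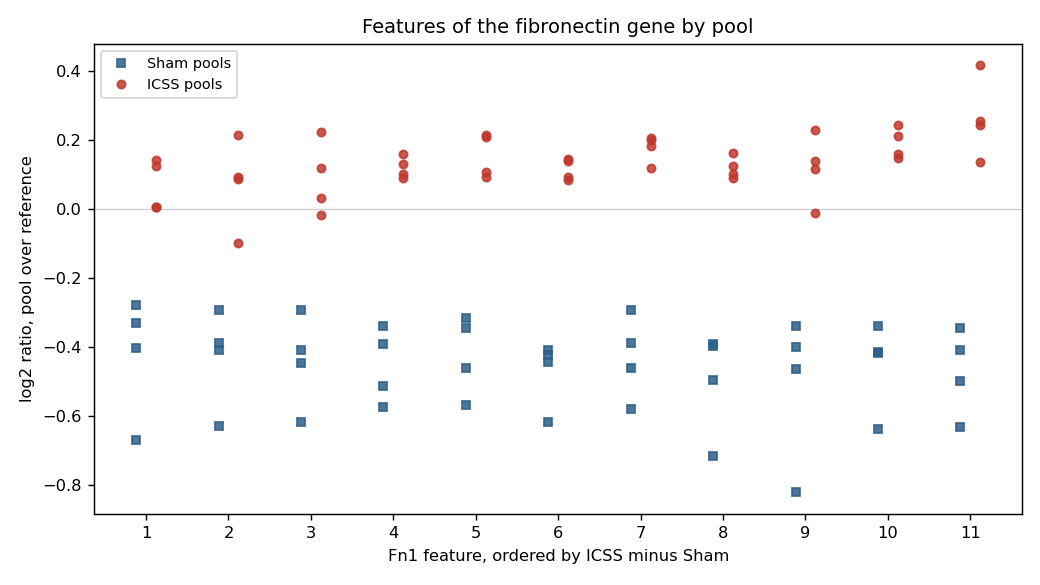
Log2 ratio of pool over reference for the 11 features of Fn1, ordered by their difference between groups, with ICSS pools as circles and Sham pools as squares. In each feature the 4 ICSS pools sit above the 4 Sham pools.

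Over the 9 matricellular glycoproteins, Fn1 included, the median difference was 0.0087, and its sign was not stable, running from -0.050 without ICSS replicate 4 to 0.047 without ICSS replicate 2. Tnr encodes tenascin R, which crosslinks lecticans in perineuronal nets. Its log2 ratio was -0.15, -0.11, -0.20 and -0.18 in ICSS and 0.036, 0.037, -0.060 and -0.055 in Sham replicates 1 to 4, lower in every ICSS pool than in any Sham pool, but it did not pass (difference -0.15, SE 0.054, limma adjusted p = 0.300). Tnc, the related tenascin C, differed by -0.059 (SE 0.053). Sparcl1 and Sparc, whose products hevin and SPARC are released by astrocytes and act on synapse formation with opposite sign, differed by -0.034 (SE 0.049) and -0.077 (SE 0.074). Sparcl1 was among the most even members, between -0.92 and -0.84 over the 8 pools. The thrombospondins Thbs1 and Thbs2, also synaptogenic proteins of astrocytes, differed by 0.032 and 0.11, and Postn, the periostin gene, by 0.0087. Thbs2 was at -0.35, -0.41, -0.016 and -0.22 in ICSS and -0.21, -0.40, -0.38 and -0.46 in Sham replicates 1 to 4, with overlapping groups.

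Aggrecan, encoded by Acan, is the lectican that defines perineuronal nets. The log2 ratio of Acan was 0.31, 0.36, 0.25 and 0.25 in ICSS replicates 1 to 4 and -0.035, -0.10, 0.095 and -0.024 in Sham replicates 1 to 4. All ICSS pools were higher, by 0.31 in the mean (1.24-fold, SE 0.060), and the limma adjusted p was 0.122, so that the gene did not pass. Acan had 1 feature, and the adjusted p lay between 0.0891 and 0.314 over 16 alternative settings. Bcan, the gene of brevican, the lectican most specific to brain, differed by -0.13 (SE 0.065, limma adjusted p = 0.427), with -0.10, -0.17, -0.099 and -0.013 in ICSS and -0.045, -0.0049, 0.030 and 0.18 in Sham replicates 1 to 4. The ranges overlapped only through ICSS replicate 4 and Sham replicate 1, and 2 of the 3 features of Bcan were lower and 1 was higher. Hapln1, the link protein that fastens lecticans to hyaluronan, was at 0.44, 0.38, 0.43 and 0.33 in ICSS and 0.62, 0.55, 0.56 and 0.34 in Sham replicates 1 to 4 (difference -0.12, SE 0.069). Sham replicate 4 was the Sham pool within the ICSS range. Ncan (neurocan) and Vcan (versican) differed by 0.038 and 0.041, and the mean over the 5 genes of this class overlapped between groups, at 0.23, 0.19, 0.22 and 0.28 in ICSS and 0.21, 0.22, 0.23 and 0.16 in Sham replicates 1 to 4.

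Heparan sulfate proteoglycans held both the lowest and the highest difference among the members. Gpc3 encodes glypican 3, a membrane-anchored proteoglycan that binds Hedgehog and Wnt ligands. It stood at 0.29, 0.26, 0.25 and 0.0097 in ICSS replicates 1 to 4 and at 0.60, 0.65, 0.57 and 0.80 in Sham replicates 1 to 4, lower in every ICSS pool (difference -0.45, SE 0.079, 1.37-fold, limma adjusted p = 0.0928). All 3 features of Gpc3 separated the groups, with differences from -0.57 to -0.30. Gpc4, an astrocyte-secreted glypican that recruits AMPA receptors, lay at 0.29, 0.34, 0.40 and 0.40 in ICSS and 0.43, 0.38, 0.47 and 0.75 in Sham replicates 1 to 4, with a difference of -0.15 (SE 0.083) and ranges that overlapped at Sham replicate 2. Gpc1 differed by 0.030 (SE 0.075). Agrn encodes agrin, the heparan sulfate proteoglycan that clusters acetylcholine receptors at the neuromuscular junction. Its single feature gave -0.96, -0.82, -1.02 and -1.06 in ICSS and -0.75, -0.60, -0.56 and -0.25 in Sham replicates 1 to 4, again with no overlap (difference -0.43, SE 0.10, 1.34-fold, limma adjusted p = 0.162). Sham replicate 4 was the highest pool for both Gpc3 and Agrn, and without it the differences were -0.40 and -0.33. Neither gene passed the threshold under any of the 16 alternative settings.

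**Figure D3:**
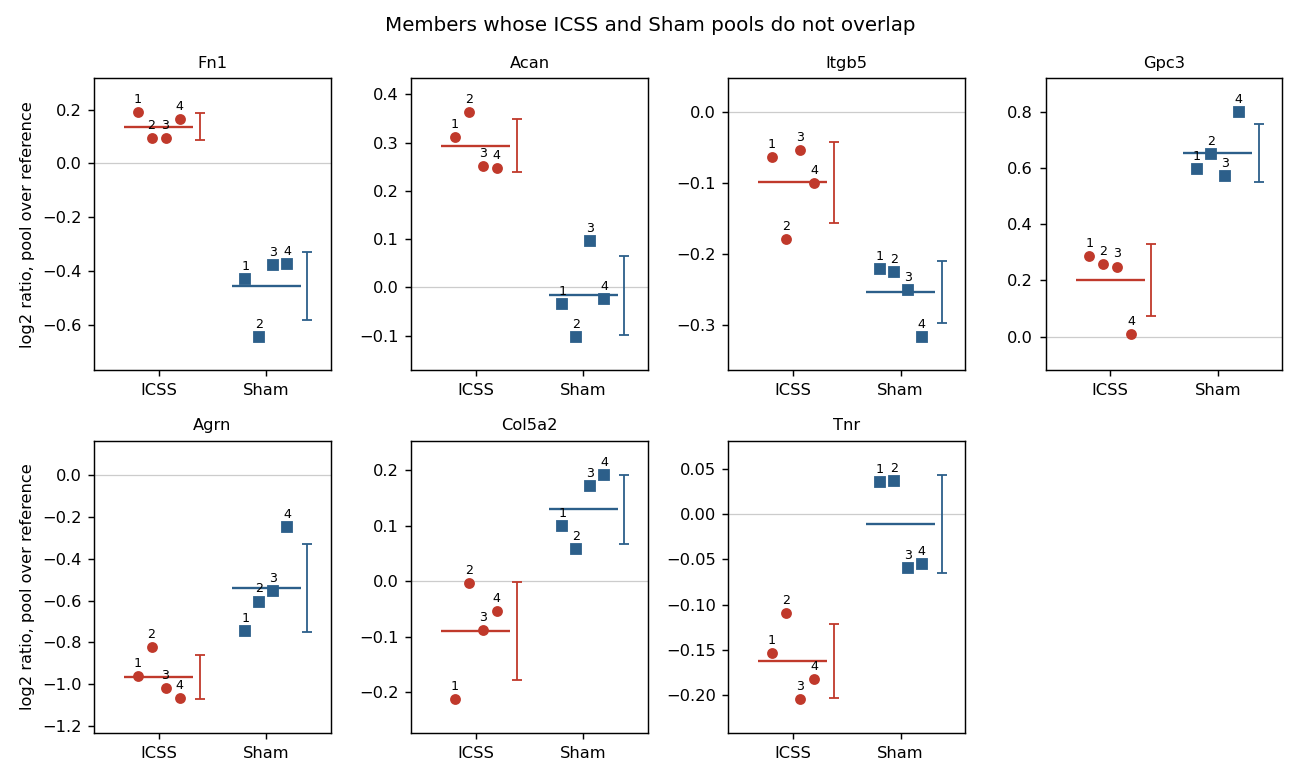
Log2 ratio of pool over reference for the 7 members whose ICSS and Sham pools do not overlap. Points are pools with their replicate number, horizontal lines are group means and the bars beside them the SD (n = 4), and Fn1, Acan and Itgb5 are higher in ICSS pools while Gpc3, Agrn, Col5a2 and Tnr are lower.

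Sdc1 and Lox shared a pattern in which ICSS replicate 1 stood apart from the other 3 ICSS pools. Syndecan 1, the product of Sdc1, is the syndecan of epithelia and plasma cells, and lysyl oxidase, from Lox, crosslinks collagen and elastin. Sdc1 was at -0.73, 0.38, 0.23 and 0.15 in ICSS replicates 1 to 4 and at -0.56, -0.57, -0.85 and -0.80 in Sham replicates 1 to 4. ICSS replicate 1 lay inside the Sham range and the other 3 above it, with a difference of 0.70 (SE 0.21, limma adjusted p = 0.231). For Lox the values were 0.12, 0.96, 1.09 and 1.12 in ICSS and 0.50, 0.53, 0.46 and 0.63 in Sham replicates 1 to 4, with ICSS replicate 1 below every Sham pool (difference 0.29, SE 0.19, limma adjusted p = 0.564). Without ICSS replicate 1 the difference was 0.95 for Sdc1 (limma adjusted p = 0.00653) and 0.52 for Lox (adjusted p = 0.0180). Both passed, as did Fn1 (0.57, adjusted p = 0.0240). For Sdc1 and Lox the pool left out was the one that stood apart. Their passes follow in part from that choice and cannot be taken as separate evidence of a difference. In that comparison 153 of 34738 units passed in all, against 16 with all pools. Among named genes, 5.06% had groups that separated once ICSS replicate 1 was left out and not with it, and among the members 2 of 53, or 3.77%, did so.

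The features of these genes did not behave alike. The first of the 2 features of Sdc1 read -1.35, 0.74, 0.34 and 0.31 in ICSS and -0.93, -1.31, -1.87 and -1.71 in Sham replicates 1 to 4, a difference of 1.47, and the second differed by -0.064 and lay between -0.19 and 0.17 in all pools. Of the 4 features of Lox, the one with the highest level read 0.33, 2.78, 3.29 and 2.89 in ICSS and 2.29, 2.34, 1.74 and 2.58 in Sham replicates 1 to 4, and a second one 0.11, 0.77, 0.68 and 1.14 in ICSS and -0.024, -0.14, 0.11 and -0.061 in Sham pools. In 2 of the 4, this second one among them, all ICSS pools lay above all Sham pools. ICSS replicate 1 lay below every Sham pool only in the feature with the highest level. Features too dim to follow a gene could not be set aside, because the spots' brightness was not used. Of the remaining syndecans, Sdc2, found on dendritic spines, differed by -0.042, Sdc3, the neuronal syndecan, by -0.027, and Sdc4, which joins integrins in focal adhesions, by -0.014 (SE 0.053, 0.15 and 0.10).

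**Figure D4:**
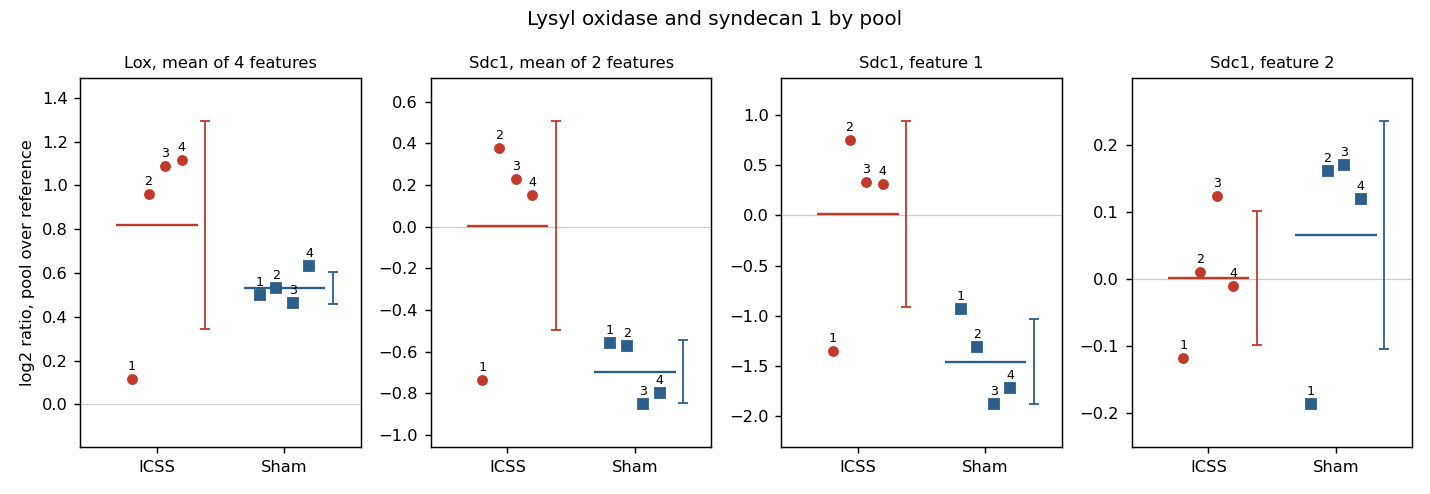
Log2 ratio of pool over reference for Lox, for Sdc1 and for the 2 features of Sdc1. Points are pools with their replicate number, horizontal lines are group means and the bars beside them the SD (n = 4). ICSS replicate 1 lies within or below the Sham pools in the first 3 panels.

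Promoter sequence shows what lies upstream of 4 of these genes, namely the lower Gpc3, the higher Acan, Sdc1 with its odd pool, and Col1a2, which stands for the collagens that varied between pools as described further on. The sequences are from RefSeq on the GRCr8 build, run 5′ to 3′ on the gene's strand from 250 bases before the annotated start to 50 after it, and 38 of the 53 members had an entry. Capitals mark matches on either strand to the CRE (TGACGTCA), the AP-1 site (TGANTCA), the GC box (GGGCGG), the TATA box (TATAAA) and the CCAAT box (CCAAT), none of which contains another.
Gpc3 (chrX:137157549-137157848, minus strand): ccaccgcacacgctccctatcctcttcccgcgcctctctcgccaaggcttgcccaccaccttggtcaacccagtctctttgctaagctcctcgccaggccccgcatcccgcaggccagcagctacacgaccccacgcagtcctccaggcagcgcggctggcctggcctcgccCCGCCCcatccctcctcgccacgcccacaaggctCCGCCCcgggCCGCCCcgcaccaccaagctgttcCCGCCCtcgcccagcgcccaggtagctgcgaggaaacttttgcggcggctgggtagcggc
Acan (chr1:142390701-142391000, plus strand): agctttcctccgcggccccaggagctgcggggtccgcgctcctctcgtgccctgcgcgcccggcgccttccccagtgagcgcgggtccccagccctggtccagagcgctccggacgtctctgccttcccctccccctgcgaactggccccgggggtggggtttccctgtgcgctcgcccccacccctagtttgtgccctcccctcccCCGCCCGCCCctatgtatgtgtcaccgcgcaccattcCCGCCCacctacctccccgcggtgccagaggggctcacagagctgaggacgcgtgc
Sdc1 (chr6:37281791-37282090, plus strand): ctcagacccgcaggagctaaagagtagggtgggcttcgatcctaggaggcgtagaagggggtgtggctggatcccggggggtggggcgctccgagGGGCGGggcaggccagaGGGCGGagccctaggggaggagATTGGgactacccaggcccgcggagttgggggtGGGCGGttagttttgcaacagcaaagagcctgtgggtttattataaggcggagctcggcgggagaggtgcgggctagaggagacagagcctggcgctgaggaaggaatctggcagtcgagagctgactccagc
Col1a2 (chr4:33518307-33518606, plus strand): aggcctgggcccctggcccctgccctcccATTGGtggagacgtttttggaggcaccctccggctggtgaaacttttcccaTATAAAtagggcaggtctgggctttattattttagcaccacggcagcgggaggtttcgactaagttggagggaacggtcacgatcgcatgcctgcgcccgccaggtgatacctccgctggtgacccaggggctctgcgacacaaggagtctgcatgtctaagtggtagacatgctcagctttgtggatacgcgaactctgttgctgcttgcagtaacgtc
The capitals are 4 GC boxes in Gpc3, 3 in Acan, of which a pair overlap, and 3 in Sdc1 with 1 CCAAT box, while Col1a2 has 1 TATA box and 1 CCAAT box. These 2 matches in Col1a2 begin at -170 and -221 from the annotated start. A GC box was found in 22 of the 38 member promoters (57.9%) and in 33.1% of all 33469 promoters, a TATA box in 7 (18.4%, against 14.2%) and a CCAAT box in 10 (26.3%, against 37.5%). The CRE, which CREB family factors bind, matched in 0 of 38 (1.83% of all promoters), and the AP-1 site in 1, that of Col6a1 (7.33% of all). A match describes letters in this window and says nothing of binding.

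Collagens I and III form the fibrils of the meninges and vessel walls. Their genes differed between pools more than between groups. Col1a1 was at -0.78, -1.09, -0.24 and -0.22 in ICSS replicates 1 to 4 and -0.63, -0.76, -0.88 and -0.87 in Sham replicates 1 to 4. Col1a2, the partner chain of the same trimer, was at -0.97, -1.24, -0.17 and -0.29 in ICSS and -0.73, -1.0, -1.05 and -0.94 in Sham pools in the same order. For Col3a1, the chain of collagen III, the values were -0.82, -1.14, -0.20 and -0.31 in ICSS and -0.78, -0.93, -1.07 and -1.04 in Sham pools. In the means of all 3 genes ICSS replicates 3 and 4 were the highest pools and ICSS replicate 2 the lowest, so the ICSS pools spanned the Sham pools. Not every feature followed this order. The second feature of Col1a1 and the first of Col1a2 were highest in ICSS replicate 1 (0.040 and 0.052). The first feature of Col3a1 stayed between -0.15 and 0.17, with ICSS replicate 1 at 0.15. The differences were 0.20 (SE 0.18), 0.26 (SE 0.22) and 0.34 (SE 0.18), and limma's adjusted p was 0.667, 0.643 and 0.485. With single arrays left out they ran from 0.083 to 0.37 for Col1a1, 0.097 to 0.45 for Col1a2 and 0.20 to 0.51 for Col3a1, lowest without ICSS replicate 3 or 4 and highest without ICSS replicate 2. ICSS pools had an SD of 0.43 to 0.52 in these genes and Sham pools of 0.12 to 0.14.

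The same pools were highest for Col6a1, a chain of the beaded collagen VI filament, and for Ogn, the osteoglycin gene. Col6a1 was at -1.21, -1.32, -0.92 and -0.76 in ICSS and -1.24, -1.30, -1.27 and -1.17 in Sham replicates 1 to 4 (difference 0.19, SE 0.11, limma adjusted p = 0.509), whereas Col6a2, its partner chain, was at 0.046, -0.093, -0.075 and -0.079 in ICSS and -0.13, -0.014, -0.085 and -0.12 in Sham pools and differed by 0.038 (SE 0.057). Col6a1 had 1 feature. The 3 features of Col6a2 differed in sign, from -0.088 to 0.16, and whether they follow the gene was not tested. Ogn, one of the small leucine-rich proteoglycans that coat collagen fibrils, was at -1.44, -1.51, -0.55 and -0.99 in ICSS and -1.29, -1.66, -1.60 and -1.81 in Sham replicates 1 to 4. Its difference of 0.46 (SE 0.20, unadjusted p = 0.0422, limma adjusted p = 0.377) did not pass and was 0.27 without ICSS replicate 3. Bgn, the biglycan gene, was at -0.034, -0.34, 0.16 and 0.17 in ICSS and 0.13, -0.16, -0.48 and -0.58 in Sham replicates 1 to 4, and Lum, the lumican gene, at -0.22, -0.033, 0.14 and 0.22 in ICSS and -0.17, 0.12, -0.14 and -0.17 in Sham pools, with differences of 0.26 (SE 0.16) and 0.12 (SE 0.11). Dcn, the decorin gene, differed by -0.047 (SE 0.069) and stayed between -0.24 and -0.020.

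Markers of leptomeninges and fibroblasts that are not members moved with these genes. The mean of 15 such markers was -0.53, -0.65, -0.079 and -0.17 in ICSS replicates 1 to 4 and -0.35, -0.60, -0.58 and -0.72 in Sham replicates 1 to 4, with ICSS replicates 3 and 4 highest. Of the 15 markers 14 had a higher mean in ICSS pools (median difference 0.22), and none passed the threshold (smallest limma adjusted p = 0.224). An unadjusted limma p below 0.05 was found in 2 of the 15, against 13.1% of named genes. The groups did not overlap in 2 of the 15, against 8.98% of named genes. Slc6a13, a transporter of meningeal cells, was at -0.95, -1.08, 0.16 and -0.11 in ICSS and -0.88, -1.10, -0.77 and -0.86 in Sham replicates 1 to 4. ICSS replicates 3 and 4 were the 2 highest pools in 11 of 53 members (20.8%), in 5 of the 15 markers and in 3.76% of named genes, a count made after the values were seen. The 11 members were Col1a1, Col1a2, Col3a1, Col6a1, Lox, Col18a1, Lama4, Bgn, Lum, Ogn and Itgb1. The part of meningeal tissue in these values was not tested.

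**Figure D5:**
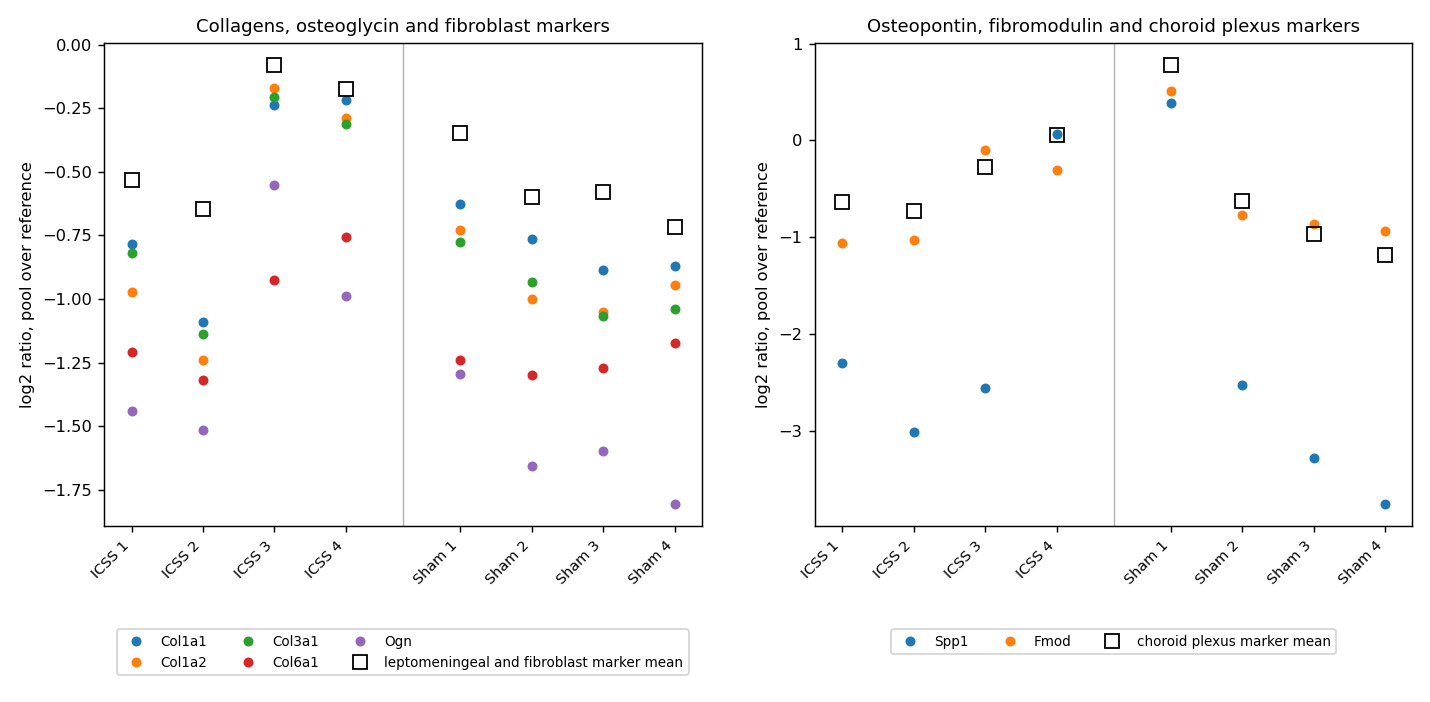
Log2 ratio of pool over reference in each of the 8 pools for 4 collagen genes and Ogn (left) and for Spp1 and Fmod (right), with the mean of the marker list that moved alongside as open squares. ICSS replicates 3 and 4 are highest on the left, and Sham replicate 1 is highest on the right.

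Collagen V regulates the diameter of collagen I fibrils, but its genes did not share that order. Col5a2 was at -0.21, -0.0036, -0.088 and -0.053 in ICSS replicates 1 to 4 and 0.10, 0.058, 0.17 and 0.19 in Sham replicates 1 to 4, lower in every ICSS pool (difference -0.22, SE 0.063, limma adjusted p = 0.214). Of its 4 features 3 separated the groups, by -0.31, -0.31 and -0.29, and 1 differed by 0.035. Col5a1 was at -0.71, -0.87, -0.69 and -0.79 in ICSS and -0.72, -0.64, -0.56 and -0.18 in Sham replicates 1 to 4 (difference -0.24, SE 0.11, limma adjusted p = 0.416), with Sham replicate 4 highest and Sham replicate 1 inside the ICSS range. Col11a1 differed by -0.055 (SE 0.056). Over the 6 fibrillar collagens the mean per pool was -0.60, -0.74, -0.24 and -0.30 in ICSS and -0.46, -0.55, -0.59 and -0.48 in Sham replicates 1 to 4, and 3 genes were higher and 3 lower.

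Spp1 and Fmod varied most between pools. Osteopontin, encoded by Spp1, is a secreted ligand of integrins made in brain by activated microglia and other cells. Its log2 ratio was -2.30, -3.01, -2.56 and 0.068 in ICSS replicates 1 to 4 and 0.38, -2.52, -3.28 and -3.76 in Sham replicates 1 to 4, and each of its 10 features had a higher ICSS mean, by 0.30 to 0.42. ICSS replicate 4 and Sham replicate 1 were near or above the reference and the other 6 pools far below it. The difference of 0.35 (SE 0.90, limma adjusted p = 0.898) turned to -0.33 without ICSS replicate 4 and grew to 1.24 without Sham replicate 1. Fmod, the fibromodulin gene, was at -1.07, -1.03, -0.10 and -0.30 in ICSS and 0.51, -0.77, -0.86 and -0.93 in Sham replicates 1 to 4, and its difference of -0.11 (SE 0.33) turned to 0.23 without Sham replicate 1, 0.037 without ICSS replicate 1 and 0.025 without ICSS replicate 2. Markers of the choroid plexus, which is attached to the hippocampal margin, had a mean of -0.64, -0.73, -0.28 and 0.055 in ICSS and 0.78, -0.63, -0.97 and -1.18 in Sham replicates 1 to 4 over 10 genes. Ttr, the transthyretin gene of that tissue, was at -1.24, -1.21, -0.82 and 0.31 in ICSS and 1.03, -1.11, -1.78 and -2.41 in Sham pools. For 6 of the 10 markers, Ttr among them, ICSS replicate 4 and Sham replicate 1 were the 2 highest pools, as for Spp1 among the members and 4.42% of named genes. The mean of the microglial markers was highest in the same pools. It was -0.28, -0.47, -0.37 and 0.027 in ICSS and 0.20, -0.20, -0.49 and -0.56 in Sham replicates 1 to 4. C1qa, C1qb, C1qc and Cd68 were highest in those 2 pools. The highest pools were Sham replicates 1 and 2 for Aif1, P2ry12, Cx3cr1 and Csf1r, and Sham replicates 1 and 4 for Tmem119. The part of choroid plexus or microglia in the values of Spp1 and Fmod was not tested.

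Basement membrane genes showed little difference, with a median of 0.016 over 10 genes and class means per pool of -0.19, -0.21, -0.12 and -0.15 in ICSS and -0.10, -0.17, -0.16 and -0.12 in Sham replicates 1 to 4. Apart from Agrn, no member of this class separated the groups. Lamb2, the laminin beta 2 chain of vessels and synapses, was at -0.080, -0.24, -0.074 and -0.047 in ICSS and 0.12, 0.050, 0.039 and -0.054 in Sham replicates 1 to 4 (difference -0.15, SE 0.064, limma adjusted p = 0.378). The groups met only at ICSS replicate 4 and Sham replicate 4. Lama4, the laminin alpha 4 chain of endothelium, was at 0.018, -0.053, 0.16 and 0.15 in ICSS and 0.0089, -0.026, -0.22 and -0.029 in Sham pools (difference 0.13, SE 0.074). Col4a1, which forms the collagen IV network, differed by 0.096 (SE 0.058), Nid1, a nidogen that bridges laminin and collagen IV, by -0.11 (SE 0.066), and Hspg2, the perlecan gene, by 0.077 (SE 0.061). Col18a1, Lamc1, Lama5 and Nid2 lay within 0.05 of no difference. Markers of endothelium, where these genes are active, had 7 of 13 means higher and a median difference of 0.039. Kdr, Pecam1 and Esam, all higher in ICSS pools, had an unadjusted p below 0.05. Kdr, a receptor for vascular endothelial growth factor, was at 0.51, 0.52, 0.76 and 0.16 in ICSS and 0.11, 0.16, -0.030 and -0.27 in Sham replicates 1 to 4, with ICSS replicate 4 barely above the highest Sham pool and the other ICSS pools well above (difference 0.50, SE 0.13, limma adjusted p = 0.190). Of the pericyte and smooth muscle markers 6 of 10 were higher, with a median difference of 0.074 and 0 at an unadjusted p below 0.05, and neither list held a marker that passed in limma. The part of endothelium in the members' values was not tested.

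Integrin subunits differed little, from -0.12 to 0.15 around a median of -0.0032 over 8 genes. Itgb5, the beta 5 subunit that pairs with alpha V to bind vitronectin, was at -0.064, -0.18, -0.053 and -0.099 in ICSS replicates 1 to 4 and -0.22, -0.23, -0.25 and -0.32 in Sham replicates 1 to 4. It was higher in every ICSS pool, by 0.15 (SE 0.054, limma adjusted p = 0.297), and did not pass. Itga5, which with beta 1 forms the classical fibronectin receptor, differed by -0.025 (SE 0.057) and Itgb1 by 0.035 (SE 0.089), and neither difference exceeded its SE. The laminin receptor subunits Itga6, Itga7 and Itgb4 differed by 0.040, -0.12 and -0.034 (SE 0.069, 0.080 and 0.10). Itga7 was at 0.080, -0.017, 0.077 and 0.26 in ICSS and 0.22, 0.079, 0.37 and 0.20 in Sham replicates 1 to 4, and Itga6 at 0.039, -0.16, -0.15 and -0.0080 in ICSS and -0.015, -0.070, -0.19 and -0.17 in Sham pools, with overlap in both. Itga1, a collagen receptor subunit, differed by -0.028, and Itga8, which binds fibronectin and nephronectin, by 0.019. The class mean per pool ran from -0.080 to 0.019 in ICSS and from -0.084 to 0.018 in Sham pools.

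Against the reference, the members spread more widely than other genes. In the Sham pools 39 of 53 (73.6%) had a mean log2 ratio below 0, beside 58.1% of named genes. A mean below -0.5 was found in 11 members (20.8%, against 3.81% of named genes) and one above 0.5 in 6 (11.3%, against 2.37%). The low members were Spp1 at -2.30 ± 1.86 (SD, n = 4), Ogn at -1.59 ± 0.22, Col6a1 at -1.25 ± 0.055, Col3a1, Col1a2, Sparcl1, Col1a1, Sdc1, Agrn, Col5a1 and Fmod. The high ones were Gpc1 at 0.76 ± 0.14 (SD, n = 4), Gpc3 at 0.65 ± 0.10, Ncan at 0.59 ± 0.11, Lox, Hapln1 and Gpc4. Some of these means rested on a single feature. In the Sham pools Lox had a feature at 2.24 and the others from -0.066 to -0.017. Sdc1 had features at -1.46 and 0.066, and Col3a1 at -1.89 and -0.024. The reference carried the same dye on every array, so these levels, which are given with no test, include any dye effect, and both groups share it.

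Other genes of the matrix pathway were followed in 5 further lists, and no member of them passed. Of 24 genes of collagen and elastin biosynthesis 14 had a higher and 10 a lower mean (median 0.055). P4ha1, a subunit of the prolyl hydroxylase that stabilises collagen, was at -0.076, 0.24, 0.13 and 0.22 in ICSS and -0.32, -0.42, -0.38 and -0.34 in Sham replicates 1 to 4, higher in every ICSS pool (difference 0.49, SE 0.075, limma adjusted p = 0.0707). Eln, the elastin gene, differed by 0.44 (SE 0.087, limma adjusted p = 0.124) and Tgm2, a transglutaminase that crosslinks fibronectin, by 0.19 (SE 0.058), both without overlap. Of 23 integrin adhesion genes 17 were higher and 6 lower (median 0.025), with Cav1, the caveolin 1 gene, at a difference of 0.22, Ptk2, the focal adhesion kinase gene, at 0.18 and its relative Ptk2b at -0.16. In the hyaluronan and perineuronal net list 11 of 17 were higher (median 0.041). Csgalnact1, which starts chondroitin sulfate chains, differed by -0.39 (SE 0.088), Has1, a hyaluronan synthase, by 0.37 (SE 0.085) and Hapln4, a link protein of nets, by 0.20 (SE 0.063), and limma's adjusted p was 0.153, 0.154 and 0.251. Among 19 other matrix receptors 9 were higher (median -0.018), with Ddr1, a collagen receptor, Itgb3 and Itgb8 at 0.15, 0.16 and 0.13. Of 16 heparan sulfate enzymes 9 were higher (median 0.0074), with Extl1 at -0.30, Ndst1 at 0.16 and Hs6st2 at 0.13.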

How the data were processed

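The values the authors deposited are log2 ratios, 1 for each feature on an array, and the submitters' processing notes name limma. Of background correction, dye normalization and log base nothing is stated in the labels or file, and the base was taken as 2. The direction, pool over reference, follows the dyes in the labels. Features were named from the platform annotation with symbols updated through Entrez identifiers (25353 with 1 symbol, 48 with several, 19819 unnamed here), and a gene is the mean of its features. ICSS was compared with Sham by limma 3.58.1 in R 4.3.3 (lmFit and eBayes, no covariates, Benjamini-Hochberg over 34738 units, threshold 0.05), and the procedure was checked on simulated data. P-values set the difference between groups against the spread between pools, moderated over all units. The number of arrays limits the precision, and no intensities were used. The members and lists were chosen with earlier results of these data known. The value in every pool is given for called members and the 3 of smallest p per class, and 3 genes of smallest p are named per further list. Pool values of other genes, the CCAAT box and the 4 promoters were chosen after their values were seen. The replicate numbers did not pair the pools (correlations of -0.053 to 0.058). The alternatives were centred, scaled or quantile-normalized arrays, the replicate number as a block, array quality weights, robust moderation, medians over features, features or named genes as units, and each array left out in turn. Marker lists of astrocytes (5 of 9 means higher), oligodendrocytes (6 of 7) and neurons (3 of 7) held no called gene.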

Additional observations from a re-analysis of the deposited data

Results flagged for a closer look

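Among 126 groups of 4 pools (53 members, 8 class means and 2 marker list means in each group), 9 held a pool far from the other 3 by Dixon's criterion, where chance gives about 1 group in 20. In the ICSS group, replicate 1 was low for Lox at 0.12, against 0.96 to 1.12 in the other pools, and high for Col6a2 at 0.046. ICSS replicate 2 was low for Lamb2 at -0.24 and high for Itga8 at 0.051, and ICSS replicate 4 was low for Gpc3 at 0.0097, against 0.25 to 0.29. In the Sham group, replicate 1 was high for Fmod at 0.51, against -0.93 to -0.77, and replicate 2 was high for Lum at 0.12. Sham replicate 3 was low for Col11a1 at -0.14 and for Lama4 at -0.22.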

How the results depend on the processing

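Of the 53 members 36 kept their direction in all 16 alternative settings, Fn1 among them, and 17 changed sign in at least 1. Units called numbered 16 of 34738, and 0 with a replicate block, 34 with array quality weights, 53 of 45220 with features as units and 0 to 153 with single arrays left out. At an unadjusted p below 0.05 limma gave 4543 units with the replicate block, and 3455 and 3311 without ICSS replicate 2 or 3, the arrays whose absence left 0 calls. Members called numbered 1, and 0 with the replicate block, where Fn1 kept its difference of 0.59 (adjusted p = 0.106). With single arrays left out 0 to 3 members were called, and the differences ran from 0.53 to 0.62 for Fn1, 0.19 to 0.52 for Lox and 0.58 to 0.95 for Sdc1. The class median ran from -0.026 to 0.039 for basement membrane, from -0.050 to 0.047 for matricellular glycoproteins (-0.0040 and -0.0037 with centred and scaled arrays) and from -0.084 to 0.064 for lecticans and link protein, for which it was -0.016 with array weights. For integrins it ran from -0.013 without ICSS replicate 4 to 0.032 without Sham replicate 2. It also changed sign for fibrillar collagens (-0.0087 with feature medians) and cell surface proteoglycans (0.0020 with array weights). Leaving out single arrays turned the sign of Spp1 (-0.33 to 1.24), Fmod (-0.29 to 0.23), Sdc3 (-0.17 to 0.13), Sdc4 (-0.12 to 0.043), Itgb4 (-0.12 to 0.026), Itga1 (-0.12 to 0.022), Ncan (-0.084 to 0.10), Lama5 (-0.058 to 0.020), Nid2 (-0.054 to 0.056), Gpc1 (-0.031 to 0.068), Postn (-0.022 to 0.047), Itgb1 (-0.012 to 0.078), Thbs1 (-0.0072 to 0.075), Col18a1 (-0.0049 to 0.089) and Itga8 (-0.0034 to 0.042). Array weights turned Ncan to -0.016, Nid2 to -0.00090, Sdc3 to 0.020 and Sdc4 to 0.036, and feature medians turned Tnc to 0.0056 and Sdc2 to 0.013. Nid2 was at -0.012 with centred, -0.011 with scaled and -0.013 with quantile-normalized arrays, and Postn at -0.0040 and -0.0037 with centred and scaled arrays. The cause of these changes was not tested. Dim features could not be filtered and no scan or slide block was possible, as the files used here hold neither.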
